A study of Drosophila melanogaster with 8 samples.

Results

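Embryos that expressed a fusion of the transcription factor Ribbon (Rib) to GFP under the btl-GAL4 driver gave 6985 chromatin regions that were called in both btl peak lists. These reproduced sites are the regions of the peak list made from btl replicates 1 and 2 that share at least 1 bp with a region called in btl replicate 3. They make up 80.4% of the 8693 regions in the first list (95% Wilson interval 79.5% to 81.2%), and the other 1708 regions had no counterpart in replicate 3. Counted from replicate 3, 6362 of its 10205 regions, 62.3%, overlapped a reproduced site. The sites were chosen by this overlap of called positions alone, on the major arms (X, 2L, 2R, 3L, 3R and 4). Replicates 1 and 2 were deposited as 1 joint list with an IDR of 0.1, where IDR, the irreproducible discovery rate, scores how well peak ranks match between replicates, so presence in each of them is known only jointly.

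Rib is a nuclear protein with a BTB domain, a fold through which such proteins pair, and a DNA-binding domain of the pipsqueak type. It is known in the Drosophila embryo for its part in the shaping of tubular organs, the trachea and the salivary glands among them. A GAL4 driver line supplies a yeast transcription activator in selected cells, and a transgene behind UAS elements is expressed there. The gene breathless (btl), after which the driver is named, encodes the fibroblast growth factor (FGF) receptor that guides tracheal branches. Chromatin immunoprecipitation followed by sequencing (ChIP-seq) reads out which DNA fragments were bound by the tagged protein.

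The btl arm comprised 3 immunoprecipitated samples, taken with a goat antibody to GFP, and 2 inputs, of which 1 served replicates 1 and 2 and 1 served replicate 3. All came from whole embryos kept at 25 °C and fixed in 1.8% formaldehyde. The stage is given as 11 to 15 in the sample characteristics and as 11 to 16 in the protocol, and the genotype as btl-GAL4::UAS-GFP in the titles and as btl-GAL4::UAS-rib-GFP in the protocol, which was followed here. If the titles held, the embryos would carry GFP without Rib. Whole embryos hold cells in which the driver is silent, and the protein was driven rather than at its native level. Replicate 3 had another library kit and another sequencing centre, so replicate and batch cannot be told apart. No immunoprecipitation from embryos without a GFP transgene was analysed here. Peak lists do not give read depth, so it is unknown. The fold enrichments below are the authors' value for each peak, on a linear scale, and intervals on shares cover counting error only, since neighbouring regions are not independent.

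Measured on the joint-list regions, which were chosen for overlapping, the overlap was mostly large. Of the reproduced sites, 6725 overlapped a single replicate 3 region, 242 overlapped 2 and 18 overlapped 3. A median of 98.6% of a site's length was covered by replicate 3, and 46.7% of the sites lay wholly inside its regions. The summit, the position of highest signal, lay at a median of 71 bp from the nearest replicate 3 summit (quartiles 33 and 130 bp), within 50 bp at 37.5% of the sites and within 250 bp at 93.6%. The largest gap was 1293 bp. At 53.8% of the sites the overlapping replicate 3 regions held more than 1 summit, counted over the whole regions and not only inside the site. Several summits give the nearest of them more chances to lie close. Reproduced sites had a median width of 770 bp (quartiles 566 and 1145) and a median −log10 q of 25.8, against 471.5 bp and 12.7 in the other btl regions. The median fold enrichment was 2.92 (quartiles 2.29 and 3.89) against 2.73 (2.39 and 3.21). These values describe the selection, since a wider region meets another list more easily. With the btl list cut into 4 equal bins from the narrowest to the widest regions, the reproduced share went from 54.6% through 78.4% and 90.4% to 98.0%. Along 4 equal bins of fold enrichment it did not run in order, at 83.7%, 71.1%, 74.7% and 91.9% from lowest to highest.

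At the edge of the rule stood regions near mxt, Pvf2 and coro, which shared 6, 20 and 28 bp with replicate 3. Just outside it stood regions near Trim9, CG43759 and wech, which were separated from a replicate 3 region by 1, 6 and 8 bases. The btl fold enrichments were 1.83, 4.07 and 2.99 in the former and 3.14, 2.41 and 3.87 in the latter. Few regions lay at this edge, as 3 sites shared at most 50 bp and 16 of the other regions lay within 50 bp of replicate 3.

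Most reproduced sites lay inside genes, and the gene ends held more of them than their share of the DNA. A summit was placed at a gene end when it lay within 500 bp of either end of a protein-coding gene, since the gene table gives no strand and a start cannot be told from a 3′ end. Gene ends held 32.0% of the sites (2232; interval 30.9% to 33.1%), while windows of that size cover 15.1% of the arms. Gene bodies away from their ends held 53.4% (3730) against 56.8% of the arms, and the space between genes held 14.6% (1023) against 28.1%. The other btl regions had a like share at gene ends, 31.6%, with a difference of 0.397 percentage points (Newcombe-Wilson 95% interval −2.09 to 2.82). Among regions of like width it was higher in the reproduced sites, by 5.34 (1.22 to 9.42), 7.79 (3.09 to 12.2), 5.94 (−0.616 to 11.7) and 10.6 points (−3.00 to 18.8) from the narrowest to the widest bin. Along the bins of fold enrichment it was 0.336, 7.53 (3.23 to 11.7), −0.175 and −11.4 points (−18.8 to −4.62), so the pooled value stands for no one kind of region. They lay between genes more often, at 22.5%, a difference (reproduced minus other) of −7.84 points (−10.0 to −5.74), and it was below 0 in all 8 of these bins, from −15.7 to −3.51 points, with 0 inside the interval in 2 of them. Inside genes the reproduced sites were higher by 7.44 points (4.80 to 10.1), a difference that changed sign to −2.62 points (−4.72 to −0.520) when 50% of both regions had to overlap, and to −0.942 (−3.06 to 1.18) when replicate 3 regions needed a −log10 q of 10. Within the width bins it was 5.80, −2.67, −2.44 and 5.15 points, and only the first interval left out 0.

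**Figure D1:**
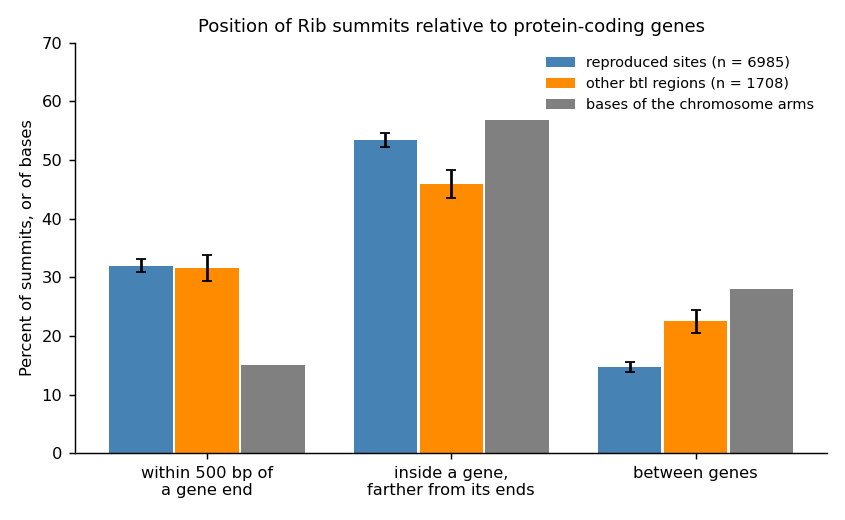
Position of summits relative to protein-coding genes, as the percent of summits in the reproduced sites and in the other btl regions, with 95% Wilson intervals, beside the percent of arm bases in each class. Gene ends hold 32.0% and 31.6% of summits on 15.1% of the bases, and the space between genes holds 14.6% of the reproduced sites and 22.5% of the other regions.

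Around gene ends the reproduced sites lay inside gene bodies more often than the other btl regions. Both sets were equally close to the end, with a median distance of 100 bp and 101 bp, and 50.1% and 49.9% of summits within 100 bp. Of the reproduced gene-end summits, however, 670 of 2232 fell outside every gene body, 30.0%, against 288 of 539 in the other btl regions, 53.4%. The difference was −23.4 points (−28.0 to −18.8), and the share of gene-end bases outside every gene was 28.6%. It had the same sign in all 4 bins of fold enrichment, from −16.4 to −28.1 points, and in all 4 bins of region width, from −18.2 to −33.6 points, the last with 7 other regions only. The replicate 3 summit nearest to each gene-end site lay farther from the end, at a median of 163 bp, with 26.9% within 100 bp. The summit of the joint list was the nearer of the pair at 73.2% of these sites. The sites were picked by the distance of the joint-list summit, which favours that summit in advance. No set picked by replicate 3 summits was compared, so no difference between the lists is read from these values. Of the gene-end sites, 40.7% were within 500 bp of 2 or more protein-coding genes and could not be given to 1 of them.

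**Figure D2:**
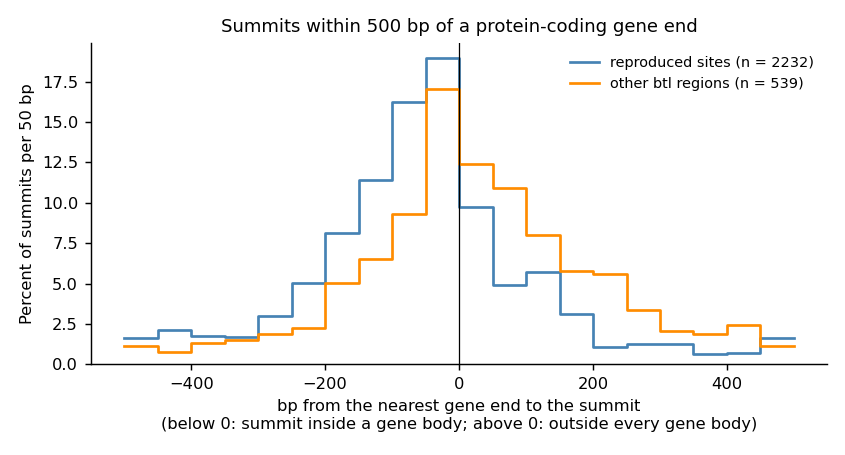
Distance from the nearest protein-coding gene end to the summit, in bp, for summits within 500 bp, as the percent of summits in each 50 bp step. Distances below 0 are inside a gene body and distances above 0, with 30.0% of reproduced sites and 53.4% of other regions, are outside every gene body.

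The fold enrichments given to the reproduced sites differed between the lists by position. The joint list gives the value of the site's own summit. For replicate 3 the value is that of the strongest summit in the overlapping region, which can lie outside the site. Sites that share a region therefore share a value, and the values compared are of unlike kinds. At gene ends the median fold enrichment was 2.57 in the joint list and 3.42 in replicate 3. Inside genes the medians were 3.07 and 2.97, and between genes 3.20 and 2.84. The share of reproduced sites that lay at gene ends went down from 46.1% in the lowest of the 4 bins of joint-list fold enrichment through 35.0% and 26.6% to 21.0% in the highest. Across all 6985 sites Spearman's rho between the lists' fold enrichments was 0.0219, and it was 0.0395, 0.0656 and 0.0850 within the gene-end, inside and between classes. Sites are not replicates. The kit, the centre, the number of pooled replicates and the choice of summit differ between the lists. Their part in these values was not tested.

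**Figure D3:**
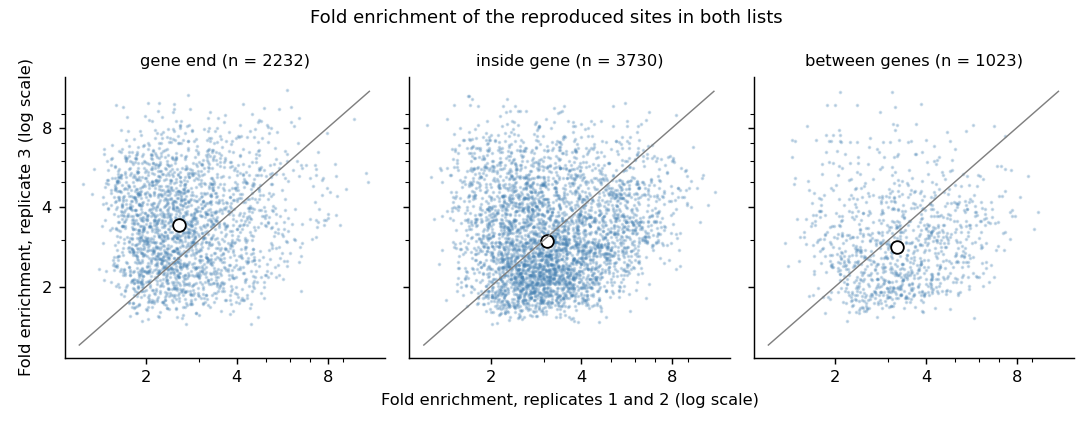
Fold enrichment of each reproduced site in the joint list of replicates 1 and 2 (horizontal, log scale) and in replicate 3 (vertical, log scale), by position, with the medians as open circles and the line of equal values. The replicate 3 value is that of the strongest summit in the overlapping region. The median moves from above the line at gene ends (2.57 and 3.42) to below it between genes (3.20 and 2.84).

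The sites with the highest mean rank over both lists were at or in genes of varied roles. The first was a region of 1020 bp at chr3L:3805983-3807002 (dm6), whose summit lay 11 bp from the nearest gene end and within 500 bp of the ends of CG32264, ntc, an F-box protein gene, and IntS10, which encodes a subunit of the Integrator complex. Its fold enrichment was 9.75 in the joint list and 8.62 in replicate 3. The second lay inside Mmp2, the gene of a matrix metalloproteinase, at chr2R:9668081-9671387, with 8.26 and 8.98. The third was 253 bp from an end of CG11825, with 7.93 and 7.66. A region inside fray, a kinase gene, also inside CG7694, had 9.40 and 6.78. One inside Ant2 and sesB, the neighbouring genes of the mitochondrial ADP/ATP carriers, had 6.70 and 9.19. Regions between genes nearest to CG7330 and to CHES-1-like, which encodes a forkhead protein, had 7.33 and 7.45 and 6.75 and 8.16. One in ome, a dipeptidyl peptidase gene, had 6.57 and 8.59. A region at the ends of CG15099 and MetRS, the methionyl-tRNA synthetase gene, had 6.40 and 8.69. The tenth lay in dpy, which encodes a very large protein of the apical matrix, with 6.30 and 8.27. Of these 10, 3 lay at gene ends, 5 inside genes and 2 between them.

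The 4 largest arms and the X had like shares of reproduced regions, and arm 4 stood apart. On 2L, 2R, 3L, 3R and X between 79.0% and 81.4% of the btl regions were reproduced. On the fourth chromosome, which is small and mostly heterochromatic, 28 of 52 were, 53.8%, a difference from the rest of −26.7 points (−40.0 to −13.8). Arm 4 also had 22.0 reproduced sites per Mb, against 48.6 to 59.8 on the other arms. The arm 4 sites included 1 at an end of pan, which encodes the TCF factor of the Wingless pathway, with fold enrichments of 3.08 and 3.03, and 1 at ATPsynbeta, with 4.97 and 2.21.

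The sites were spread over many genes. They had 3949 different nearest genes, and 3039 of 13922 protein-coding genes had a reproduced summit at an end, 21.8%. With gene bodies included, 3902 genes had one, 28.0%. Most of these, 2682, had 1 site, 936 had 2 to 4, 223 had 5 to 9, and 61 had 10 or more. The last group held 807 sites, 11.6% of all, in long genes: their median length was 69154 bp, against 2163 bp for all protein-coding genes. The share with a site at an end also went up with length, from 10.1% in the shortest of 4 equal bins of genes through 18.1% and 24.5% to 34.7% in the longest. Counts at gene ends in the protein-coding lists below are therefore given beside the share of all genes of the same length bins, also called like length. These bins match length only in part, as the longest has no upper bound and a median of 11394 bp. Where a gene had several end sites, the one with the higher mean percentile is quoted. The joint-list fold enrichment stands first, and that of the strongest summit in the overlapping replicate 3 region after it. By type, 80.0% of the sites had a protein-coding gene as the nearest gene, while 78.7% of all genes are protein-coding. A long non-coding RNA gene was nearest to 13.3% (11.1% of genes). Small nucleolar RNA genes were nearest to 0.630% of sites and are 1.52% of genes, and pseudogenes 0.272% and 1.39%.

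The genes with the most sites were long ones, several of them regulators or steroid response genes. Eip75B, a nuclear receptor gene induced by the moulting hormone ecdysone, had 33 sites in 114 kb, with joint-list fold enrichments of 1.81 to 10.5 and replicate 3 values of 1.81 to 9.64. The gene bun, of the TSC-22 family of transcriptional regulators, had 25 (joint-list range 1.55 to 8.98), and sbb, a nuclear regulator, had 22 (1.77 to 5.25). Both tai, which encodes a coactivator of steroid receptors, and fz2, a Wingless receptor gene, had 20. The translational repressor gene pum had 19. Eip74EF, an ecdysone-induced ETS factor gene, and the non-coding RNA gene lncRNA:CR32773 had 18, and ftz-f1, a nuclear receptor gene, and shn, a zinc finger factor gene of the Dpp pathway, had 17. The genes rdx, pyd and Svil also had 17. Of the sites in Eip75B, 1 was at a gene end; bun had 2 there, and fz2, pum and shn had none.

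**Figure D4:**
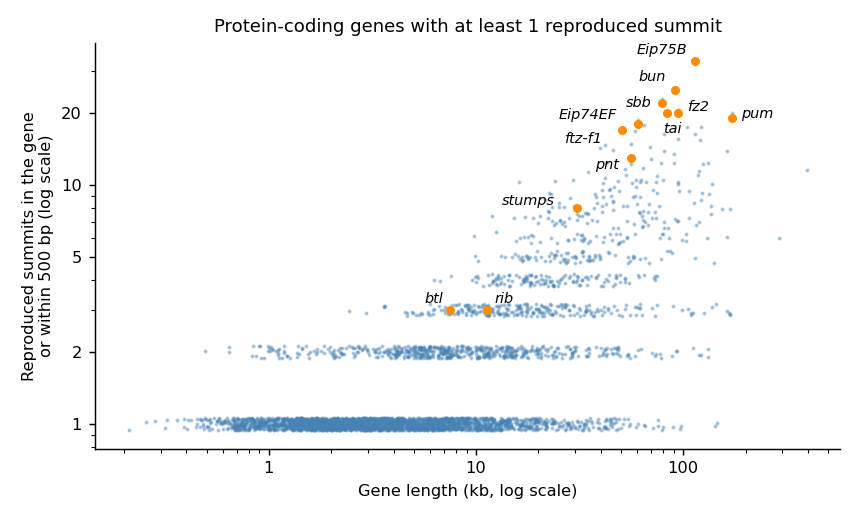
Number of reproduced summits in a protein-coding gene or within 500 bp (vertical, log scale, points moved by up to 6% so that equal counts can be seen) against gene length in kb (log scale), for the 3902 genes with at least 1. Named genes run from btl and rib with 3 sites to Eip75B with 33, and genes with 10 or more are long.

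Of 23 genes known for tracheal branching, 11 had a site at an end, 47.8% (interval 29.2% to 67.0%), against 21.8% of all genes and 32.9% of genes of the same length bins, which lies inside that interval. In the body or within 500 bp 19 of the 23 had one (82.6%, 62.9% to 93.0%), with 85 sites in all. The share was 28.0% in all genes and 51.1% in those of the same length bins. The median length of the list, 23519 bp, is above the 11394 bp of the longest bin, so length is not fully matched. Fold enrichments at the ends of the 11 genes ran from 1.60 to 3.17 in the joint list and from 1.97 to 6.48 in replicate 3, and 3 of the 11 genes shared the site with another gene's end.

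Among the FGF pathway genes of the trachea, btl itself had 3 sites inside the gene, all among the higher values. Their fold enrichments were 8.04, 4.81 and 7.90 in the joint list, and 6.12, 4.81 and 4.81 in replicate 3. The first, at chr3L:14076195-14077594, had a −log10 q of 171 and lay 517 bp from the nearest end. The driver line carries regulatory DNA of btl, and signal from it and from the native gene cannot be told apart in a peak list. The gene bnl, which encodes the ligand of btl, had 2 sites, with 5.55 and 3.57 at the stronger and 2.53 and 1.94 at the weaker. The gene stumps, whose product links the receptor to the cell interior, had 8 sites in 30.9 kb. Of these, 1 lay 6 bp from a gene end (2.97 and 5.34), and the strongest in the joint list lay inside the gene (6.98 and 4.84). The ETS factor gene pnt, a target and effector of receptor signalling, had 13 sites, the gene-end one 34 bp from the end with 1.66 in the joint list and 6.48 in replicate 3. The feedback inhibitor gene sty had 2, at most 2.29 and 6.90.

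The transcription factor genes of the trachea differed among themselves. In rib, 3 sites lay inside the gene, with fold enrichments of 3.34, 2.34 and 1.69 in the joint list and 9.13, 7.69 and 7.69 in replicate 3. These put them at the 66.3, 26.0 and 3.23 percentiles of the joint list and at the 99.8, 99.1 and 99.1 percentiles of replicate 3, where the second and the last site share a region. The UAS transgene holds rib coding sequence, and its DNA and the native gene's cannot be told apart here. The gene trh, a bHLH-PAS factor gene that starts tracheal fate, had 2 sites inside the gene (2.92 and 2.18, 4.57 and 2.39), and 5 sites between genes had it as their nearest gene, the strongest with 9.42 in the joint list. Its partner gene tgo had 1 site, 117 bp from the end (2.16 and 1.97), shared with neur. The homeobox gene hth had 13 sites, apt had 11, and grh, which controls epithelial barrier genes, had 4. Single gene-end sites were found at esg (2.28 and 2.58), peb (1.60 and 3.12), knrl (3.17 and 2.59) and kni (2.29 and 2.64), and bs, the serum response factor gene of terminal cells, had 2 of its 3 sites at an end. sima, the hypoxia-inducible factor gene, had 3 sites.

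No reproduced site lay within 500 bp of the genes salm, salr, vvl and dysf. The gene vvl, which encodes a POU factor, was nonetheless the nearest gene to 13 sites between genes, at 3105 to 49015 bp, with fold enrichments of 2.04 to 6.64 in the joint list and 1.67 to 4.69 in replicate 3. kni was the nearest gene to 8 such sites, at 832 to 24049 bp, and salm to 5, at 2237 to 29016 bp. dysf was nearest to 1, 787 bp away, with 4.39 and 3.43, and salr to 1. A nearest gene is a position and not a target. Of the Dpp pathway, whose receptors direct the dorsal and ventral branches, 7 of 18 genes had a gene-end site (29.2% of genes of like length). The receptor gene tkv had 11 sites, from 1.88 to 5.76 in the joint list, put had 2, and the ligand antagonist sog, the signal transducer Mad and the inhibitor Dad had gene-end sites with 3.86 and 2.21, 3.67 and 3.38, and 3.08 and 4.20.

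Other signalling lists held gene-end sites at shares close to those of genes of like length. In the FGF and EGF receptor pathways it was 9 of 26 genes (like length 33.5%), with Dsor1, a MAP kinase kinase gene, at 2.20 and 6.98, Krn, an EGF receptor ligand gene, at 2.46 and 3.93, and aop, an ETS repressor gene, at 2.29 and 4.27. In the Wingless pathway it was 8 of 22 (like length 31.4%), with fz at 2.47 and 3.40, Wnt4 at 3.43 and 2.05 and fz3 at 3.62 and 1.92. In the Hedgehog pathway it was 5 of 14 (like length 28.7%), all 5 shared with another gene, with Su(fu) at 3.47 and 4.14 and disp at 2.98 and 6.48. In the Notch pathway it was 6 of 19 (like length 24.4%), with fng at 2.94 and 3.49, mam at 2.72 and 3.37 and Delta at 1.80 and 3.48. The 10 Hox genes and cofactors had a median length of 30563 bp, above that of the longest bin. Of these, 7 had a site in the body or within 500 bp (53.1% of genes of like length). At an end 1 had a site, Scr (like length 33.7%), with 3.03 and 2.51. Of 12 factor genes of the salivary gland and of secretory cells, 4 had a site at an end (like length 29.4%): CrebA (2.96 and 3.86), fkh (2.75 and 2.92), Scr and Xbp1 (2.06 and 1.98).

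Of 15 ecdysone response genes, 13 had a site in the body or within 500 bp (54.1% of genes of like length), with 125 sites in all. At an end 6 had one, 40.0% (34.0% of genes of like length). The median length of the list, 50703 bp, is above that of the longest bin, so length is not fully matched. The ecdysone receptor gene EcR had 14 sites (from 1.99 in the joint list, and 1.71 to 5.65 in replicate 3), and its partner gene usp had 1, 85 bp from the end, with 2.94 and 6.85. Eip63E had 10 sites with up to 9.25 in the joint list, Hr4 had 10, Hr39 had 8 and Hr3 had 6. The gene br had 1 site in 89.7 kb (2.41 and 2.80), and Hr38 and Eip93F had none, so genes of this list with bodies over 30 kb ranged from 0 to 33 sites.

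Genes of the apical matrix were the list with the highest share at gene ends. Apical matrix, chitin and lumen proteins line the tracheal tube and set its length and width. Of 27 such genes, 16 had a gene-end site, 59.3% (interval 40.7% to 75.5%), against 30.6% of genes of the same length bins. The end of knk, a chitin-organising protein gene, had 5.34 and 3.23, and it is shared with tws. The end of exp had 4.23 and 3.47, that of dyl 3.56 and 3.80 and that of uif 3.29 and 3.74. The chitin synthase gene kkv, the chitin deacetylase genes serp and verm, the ZP-domain protein genes pio, dpy, neo, mey and nyo, and mmy, Gasp, obst-A and Gnpnat were among the 16. Of 15 apical polarity genes, 7 had one, 46.7% (like length 32.6%). Moe, which encodes the linker of membrane and actin Moesin, had 4.75 and 5.55 at a site shared with Uros1, and ex, baz and cora had 2.85 and 4.43, 2.87 and 3.18, and 2.04 and 4.85. Septate junction genes had 5 of 19 (28.9% of genes of like length), with Nrg, bark, cora, Lac and scrib. Actomyosin and adherens junction genes had 9 of 24 (like length 29.2%), with p120ctn, a catenin gene, at 8.16 and 4.57. Rac2, dia and chic had from 1.74 to 2.20 in the joint list and from 4.47 to 7.76 in replicate 3.

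**Figure D5:**
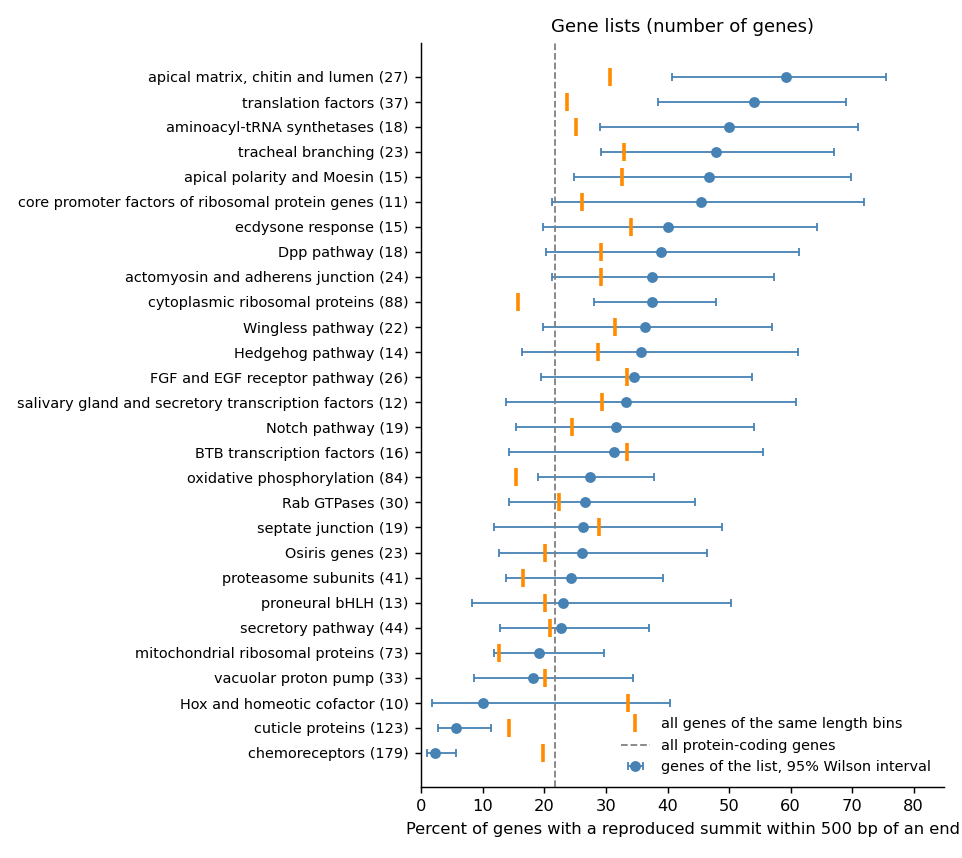
Percent of the genes in each protein-coding list with a reproduced summit within 500 bp of an end, with 95% Wilson intervals, beside the percent of all protein-coding genes (dashed line, 21.8%) and of all genes of the same length bins (orange marks). Apical matrix, chitin and lumen genes are at 59.3%, translation factors at 54.1%, and cuticle proteins and chemoreceptors at 5.69% and 2.23%.

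Genes of protein synthesis were also often marked at an end, in the study's stated field of ribosomal protein gene regulation. Of 88 cytoplasmic ribosomal protein genes, 33 had a gene-end site, 37.5% (28.1% to 47.9%), against 21.8% of all genes and 15.8% of genes of the same length bins, and these genes are short, with a median of 1344.5 bp. They were 16 of 50 genes of the large subunit and 17 of 38 of the small one, at 35 sites, as RpS14a and RpS14b, near-identical neighbours, share 1 and RpS14b, RpL27A and RpS27 have 2 each. With the higher-ranked end site of each gene taken, the summit lay at a median of 137 bp from the end. Joint-list fold enrichment at these sites ranged from 1.63 to 6.05 with a median of 2.31, and replicate 3 from 1.51 to 8.52 with a median of 2.73. By the mean of the percentiles in both lists the first were RpS10b (6.05 and 8.43), RpS21 (4.08 and 4.34), RpL36 (3.21 and 5.91) and RpL8 (2.70 and 6.26). The replicate 3 overlap held 12 summits at RpS21 and 11 at RpL8, against 2 at RpS10b and 1 at RpL36. The replicate 3 value is the highest of them and may not lie at the gene end. A further 9 of the genes had a joint-list summit at an end that replicate 3 did not reproduce. Of the 33 genes with a reproduced site, 16 shared it with another gene's end, among them RpS21 with CG2991 and RpL36 with Mybbp1A. Of 37 translation factor genes, 20 had a gene-end site, 54.1% (38.4% to 69.0%; like length 23.6%), with eEF5 at 5.78 and 6.51, eRF1, the release factor gene, at 3.46 and 8.69, and eIF2beta at 3.84 and 4.74. Of 18 aminoacyl-tRNA synthetase genes 9 had one, 50.0% (29.0% to 71.0%; like length 25.1%), with MetRS, TyrRS (3.35 and 6.23), ThrRS (3.60 and 4.72) and TrpRS (3.41 and 3.55). In all, 10 of the 20 translation factor genes and 8 of the 9 synthetase genes shared their site with the end of a further gene.

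Of 11 core promoter factors known at ribosomal protein genes 5 had a gene-end site (like length 26.1%), Trf2 (2.07 and 6.38), psq (2.76 and 7.15), TfIIB, TfIIA-S and Taf1. The mitochondrial ribosomal protein genes had 14 of 73, 19.2% (like length 12.7%), all 14 shared with another gene, and the oxidative phosphorylation genes 23 of 84, 27.4% (15.4%), of which 20 were shared. Proteasome subunits had 10 of 41, 24.4% (like length 16.6%), and the vacuolar proton pump 6 of 33, 18.2% (like length 20.1%). Rab GTPases had 8 of 30, 26.7% (like length 22.3%), and the secretory pathway 10 of 44, 22.7% (like length 21.0%). In the same order, 8, 3, 7 and 10 of the genes with a site shared it with another gene's end. In the secretory list, Syx5 had 4.08 and 4.49 and Sec24AB, a coat protein gene of transport vesicles, 3.59 and 5.27. BTB transcription factor genes had 5 of 16 at an end (like length 33.4%) and 14 of 16 in the body or within 500 bp (like length 52.4%). The median length of this list, 43625.5 bp, is above that of the longest bin. In it, mamo had 6.32 and 5.99 at a site shared with AMPdeam. Proneural and related bHLH genes had 3 of 13 (like length 20.1%), namely hry, da and emc. The Osiris genes, a clustered family of insect proteins, had 6 of 23 (like length 20.2%), led by Osi18 with 7.33 and 5.28.

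Of 123 cuticle protein genes 7 had a gene-end site, 5.69% (2.78% to 11.3%; like length 14.2%), with Cpr62Ba at 7.75 and 3.43. Without replicate 3 the count was 16, as 9 genes had an end summit in the joint list only. Of 179 chemoreceptor genes 4 had one, 2.23% (0.872% to 5.60%; like length 19.8%), at 3 sites, and each also lay at the end of another gene. Without replicate 3 the count was 13, with 9 genes at joint-list summits that were not reproduced. Of the 28 protein-coding lists, 23 had a higher share than the 21.8% of all genes and 22 a higher share than genes of their length bins. For 5 of them the whole interval lay above the share of their length bins, the apical matrix, translation factor, synthetase, cytoplasmic ribosomal and oxidative phosphorylation lists, and for 2, the cuticle and chemoreceptor lists, it lay below. The lists were chosen with earlier results known, and no test was made over them. Among non-coding genes, 69 of 290 tRNA genes had a site within 500 bp, 23.8%, at 47 sites, against 20.0% of genes of any type. Without replicate 3 it was 106 genes, of which 37 had joint-list summits that were not reproduced. Near-identical tRNA genes make the placing of short reads uncertain. Of 260 microRNA genes 19 had one, 7.31%, led by mir-4962 (4.41 and 8.27), mir-317 and mir-279, and of 269 small nucleolar RNA genes 29 had one, 10.8%. No share of like length was made for these non-coding lists, with median lengths of 73 bp (tRNA), 92 bp (microRNA) and 134 bp (small nucleolar RNA). The 20.0% is therefore not matched for length. In the shortest bin of protein-coding genes, with a median of 796 bp, the share was 10.1%.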

How the data were processed

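The btl part of a ChIP-seq series of 8 samples was analysed from 2 deposited peak lists without headers. The submitters' processing notes name CASAVA 1.8.2, Bowtie2 2.3.4.3 and 2.3.4.1, SAMtools 1.9 and 1.7, Picard, MACS2 2.2.4, bedtools and the build dm6, with no role or order. How a filter on mapping quality was set is not given in the sources used here. In the joint list of replicates 1 and 2, the score column as deposited was read as the capped IDR scale (415 to 1000, where 540 is an IDR of 0.05). The authors' ratio column was read as the fold enrichment at the summit and the deposited −log10 column as the q-value of a peak, from their layout. The authors' columns are values of a peak, so no spread between replicates and no p-value was computed.

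Replicate 3 lines that share coordinates were joined into 10205 regions with 17149 summits (6 more summits lay off the arms), and a region took its highest fold enrichment. Summits were placed against 13922 protein-coding genes of 17684 genes on the arms, from RefSeq's Release 6 table, counted from 1 and without strand. Python 3.11.15, NumPy 2.4.6, pandas 2.3.3, SciPy 1.17.1 and Matplotlib 3.10.9 were used, and the overlap, distance and class steps were tested on simulated regions.

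The sites, the 31 gene lists (18 by name, 13 by symbol pattern) and the comparisons were chosen with earlier results of these data known. Genes were named by rule: the 10 sites with the highest mean of their fold percentiles in both lists, the 10 genes with the most sites (the 3 that tie after them were added when seen), the 4 highest gene-end members of each list, every tracheal branching gene, and the regions next to the overlap rule. Other members of a list are named without a rank. Regions were compared by shares with Wilson and Newcombe-Wilson 95% intervals. Alternatives were a reciprocal overlap of 50%, a replicate 3 summit within 250 bp, an IDR of at most 0.05, a replicate 3 −log10 q of at least 10, no replicate 3, windows of 250 and 1000 bp, and region midpoints. The peaks of the other driver and the list called highest confidence were not used here.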

Additional observations from a re-analysis of the deposited data

How the results depend on the processing

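With 50% of both regions required to overlap, 4434 sites remained, 34.4% of them at gene ends, with a median distance to a gene end of 2033.5 bp in place of 2220 bp. With a replicate 3 −log10 q of at least 10, the gene-end share was 35.5% and the median distance 1750 bp. The gene-end share was 39.1% with windows of 1000 bp and 27.0% with windows of 250 bp. The gene-end difference between reproduced and other regions, 0.397 points, was 5.18 points with the reciprocal overlap, 8.41 with the stricter q and 2.38 with a replicate 3 summit within 250 bp, intervals that leave out 0, and it was −0.654 with an IDR of at most 0.05 and −0.712 with midpoints. The inside-gene difference became −2.62 and −0.942 points under the reciprocal overlap and the stricter q. The cause was not tested. Without replicate 3, that is over all 8693 regions of the joint list, 3713 genes had a gene-end summit, 26.7% of protein-coding genes. Above this background, which is higher than the 21.8% of the reproduced sites, stood 20 lists. The gene-end counts of cuticle protein, chemoreceptor and tRNA genes were then 16, 13 and 106. The lower share between genes and the lower share outside gene bodies at gene ends had the same sign, with intervals that leave out 0, under all 7 of these alternatives. Of 248 counts of genes with a gene-end site (31 lists under 8 alternatives), 200 were within 1.5 times the reported count, and 18 of the 48 others came from the reciprocal overlap. Under that overlap 2123 of 13922 protein-coding genes had a gene-end site, 15.2% in place of 21.8%. The limit of 1.5 times does not allow for this fall in the background. There 18 of 88 cytoplasmic ribosomal, 11 of 37 translation factor and 15 of 84 oxidative phosphorylation genes had a site, beyond 1.5 times. Apical matrix and synthetase genes, with 11 of 27 and 8 of 18, stayed within it. No paired analysis was possible because replicates 1 and 2 were deposited as 1 joint list and no value of a single sample can be matched by number. With 1 list per side, no replicate error can be given, and depth is unknown.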

Other observations

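Of the 1023 sites between genes, at most 14 had the same nearest gene. Some of the genes with the most such sites were in no list used here. Counted by nearest protein-coding gene, CG12362 had 14 such sites, more than vvl with 13, CheA75a had 11, CG43245 had 10 and plh had 9. The homeobox genes mirr and ems had 7 and 6, and hry and noc had 7 and 6. These genes were named after their counts were seen, the lengths of the surrounding gaps were not compared, and a nearest gene is a position only.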
